A study of Oryza sativa with 4 samples.

Results

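The yellow stripe-like (YSL) genes of rice encode membrane transporters that carry metals bound to a chelator. Of 10 YSL genes named for this account, YSL2, YSL5, YSL6, YSL9, YSL12, YSL13, YSL14, YSL15, YSL16 and YSL18, probe sets were found for 9, out of 17905 genes with a probe set on the array. YSL2 had none in the probe table and was not analysed here. The genes were matched by symbol or synonym, and the family was chosen from earlier results of these same 4 arrays, in which YSL13 and YSL16 had lower signals in plants that overexpress OsBIERF3. The comparison of genotypes is therefore given for the YSL genes as a description, and the calls counted for them are no independent test.

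Leaves of 3-week-old rice (Oryza sativa) were compared between wild type (WT) and plants that overexpress the ethylene-responsive factor OsBIERF3 (OsBIERF3-OE), on 2 Affymetrix arrays of 1 colour for each genotype. Signals are quoted in the order array 1, array 2 throughout. All plants were grown without stress treatment. The promoter of the transgene, the number of independent lines and the rice variety are not given in the sources used here. The sample titles call the arrays of a genotype biological replicates. Whether a sample was 1 plant or a pool is not stated, and the spread between arrays may be partly technical. OsBIERF3 transcript was not analysed here.

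Grasses take up iron by releasing mugineic acids into the soil, which bind ferric iron, and by importing the complex through YSL transporters of the root. Nicotianamine, the precursor of mugineic acids, also binds iron, manganese, copper and zinc inside the plant. YSL proteins of the vascular tissue move these complexes through the phloem, to young leaves and to the seed.

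Deposited values had nearly equal distributions on the 4 arrays, with median signals between 19.7 and 20.3. As background served the highest signal among 33 control probe sets that match no rice transcript, 25.1 to 28.0 depending on the array. At a limma adjusted p of 0.05, 24.2% of the 34355 tested probe sets were called. Bacterial control transcripts, which have no target in the plant, were lower in OsBIERF3-OE, by a mean log2 change of -0.29 for the 27 hybridization control probe sets and -0.60 for the 36 poly-A control probe sets. Poly-A controls averaged 7.14 and 7.13 (log2 signal) in WT, against 6.71 and 6.37 in OsBIERF3-OE. When signals were scaled to equal hybridization controls, 7729 probe sets were called higher and 1615 lower, against 4273 and 4058 with the values as deposited. Scaling on the poly-A controls gave 14083 and 919, with limma's errors fitted anew, so the total of these calls is not comparable with the others. A direction is therefore a direction relative to the other genes of the array, and the median log2 change of all genes tested was -0.04. For rice actin and GAPDH, 3′ over 5′ signal ratios were lower in OsBIERF3-OE as well, with log2 changes from -0.55 to -0.85. Signals were far stronger at the 3′ end on every array. The GAPDH ratios were 12.8 and 11.2 in WT and 7.37 and 7.25 in OsBIERF3-OE. One actin pair gave 39.9 and 37.7 against 29.1 and 24.0, and another gave 9.45 and 9.45 against 5.73 and 4.81. The part of these control differences in the YSL results was not tested.

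Of the 9 YSL genes measured, 8 were above background on all 4 arrays. Leaves also held the transcripts that mark them: all 6 measured genes of photosynthetic cells were above background on every array. In the plot of signals by array, YSL13, YSL16, YSL6, YSL5, YSL12 and YSL15 had lower signals on both OsBIERF3-OE arrays than on either WT array, while the genotypes overlapped for YSL9 and YSL14. This made 6 of 8 tested YSL genes without overlap in that direction, where 39.4% of all genes tested had the same pattern. By limma, 3 of the 8 passed the adjusted p as lower in OsBIERF3-OE (YSL13, YSL16 and YSL6; 14.5% of all genes passed in that direction) and 0 passed as higher (17.2% of all genes), as all 8 changes were below 0. With the scaling on hybridization controls 6 of the 8 changes were below 0, and with that on poly-A controls 3. The median log2 change of the 8 genes was -0.54. As the genes were chosen from this contrast, nothing is read from these shares. In whole leaves, fewer cells of the type that expresses a gene and less transcript per cell cannot be told apart.

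**Figure D1:**
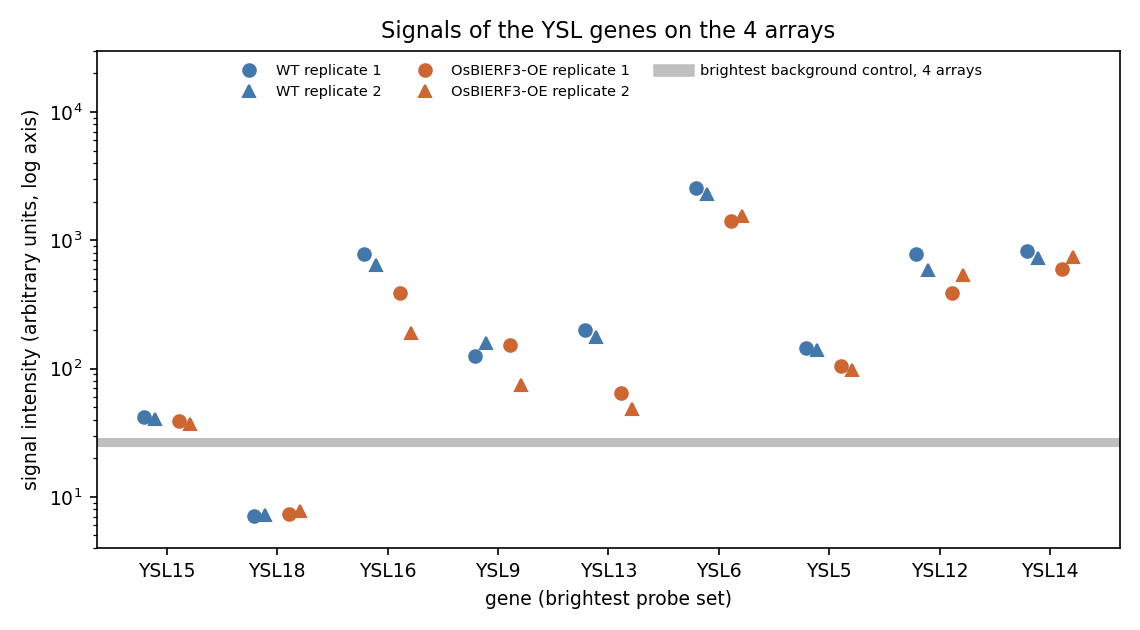
Signal intensity (log axis) of the brightest probe set of each of 9 YSL genes on 2 WT arrays (blue) and 2 OsBIERF3-OE arrays (orange), with circles for replicate 1 and triangles for replicate 2. The grey band spans the brightest background control of the 4 arrays, 25.1 to 28.0. YSL18 lies below it, and YSL13, YSL16 and YSL6 are lower on both OsBIERF3-OE arrays. Heights of different genes come from different probe sets and are not comparable.

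YSL15 is the root importer of iron bound to deoxymugineic acid and is known to be induced by iron deficiency. Its leaf signal (LOC9268232) was 42.0 and 40.3 in WT and 39.2 and 37.1 in OsBIERF3-OE. All 4 values were above background but close to it, and the log2 change of -0.11 was smaller than its standard error of 0.14. YSL18, a transporter of the same complex known from flowers and from phloem, gave 7.13 and 7.24 in WT and 7.37 and 7.77 in OsBIERF3-OE. Its probe set (LOC4327424) was not above background on any array and did not pass the filter on dim probe sets, so no change is given for it.

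YSL16 carries copper bound to nicotianamine in the phloem and also accepts iron bound to deoxymugineic acid. Its signal (LOC4336546) was 781.0 and 644.4 in WT and 389.7 and 190.3 in OsBIERF3-OE. The genotypes did not overlap, but OsBIERF3-OE array 1 was 2.05-fold above array 2. The fold between genotypes was 2.60, with WT higher, and the log2 change was -1.38 with a standard error of 0.35. The gap between the OsBIERF3-OE arrays was wider in only 1.51% of the tested probe sets. YSL16 was not called without WT replicate 1, without WT replicate 2, with a lower limit of 16 on signals, or with limma's trend set to FALSE. Scaled on the hybridization controls, YSL16 was not called either (log2 change -1.09, limma adjusted p = 0.0663).

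YSL9, which is known from the movement of iron into the embryo of the developing seed, lies near YSL16 on the same chromosome, with 3 genes between them in the gene table. Its signal (LOC4336545) was 124.9 and 158.3 in WT, and 153.8 and 74.0 in OsBIERF3-OE. OsBIERF3-OE array 1 lay inside the WT range and array 2 below it, 2.08-fold lower than array 1, so YSL9 and YSL16 were separated on the same pair of arrays by nearly the same fold. The genotypes overlapped for YSL9, and its log2 change of -0.40 had a standard error of 0.36.

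YSL13, a gene known for the distribution of iron between older and younger leaves, had the largest change among the 8 tested YSL genes. Its signal (LOC4336441) was 201.2 and 177.5 in WT and 63.9 and 48.2 in OsBIERF3-OE. Each OsBIERF3-OE value was less than the lowest WT value by far more than the arrays of one genotype differed. WT was 3.41-fold higher, at 189.4 ± 16.7 against 56.0 ± 11.2 (SD, n = 2 each), and the log2 change was -1.77 with a standard error of 0.19. YSL13 was called lower under all 16 alternatives run.

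YSL12 is the direct neighbour of YSL13 in the gene table. Its brighter probe set (LOC4336442) read 776.7 and 590.8 in WT, and 387.7 and 531.5 in OsBIERF3-OE. The lower WT value and the higher OsBIERF3-OE value were close, and the log2 change of -0.58 had a standard error of 0.21. A fainter probe set of YSL12 was not above background on any array, with signals between 4.41 and 5.69, and gave no measurement. YSL11, on the other side of YSL12, was also not above background on any array.

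YSL6 transports manganese bound to nicotianamine and is known for tolerance of excess manganese in leaves. Its signal (LOC4335676) was 2549 and 2310 in WT and 1404 and 1555 in OsBIERF3-OE. The genotypes were well apart, with WT 1.64-fold higher and a log2 change of -0.72 (standard error 0.11). YSL6 was not called without WT replicate 1, nor after scaling on the hybridization controls (log2 change -0.43) or on the poly-A controls (-0.12). With the replicate number as a block it narrowly missed the threshold as well (limma adjusted p = 0.0509). YSL5, its direct neighbour in the gene table, had a smaller difference, with narrower gaps between the arrays of each genotype. The YSL5 signal (LOC4335677) was 145.1 and 139.1 in WT and 103.7 and 97.9 in OsBIERF3-OE, with WT 1.41-fold higher and a log2 change of -0.50 (standard error 0.13). YSL5 and YSL16 lay on either side of the threshold for calls, with limma adjusted p of 0.0501 and 0.0425. YSL5 was called with quantile normalization, with trend set to FALSE, with the mean of a gene's probe sets and with the upper 40% of probe sets tested.

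YSL14 (LOC9267947) differed little between genotypes. It gave 826.0 and 724.1 in WT and 598.0 and 734.5 in OsBIERF3-OE, and OsBIERF3-OE array 2 lay inside the WT range. The log2 change was -0.22 with a standard error of 0.15.

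**Figure D2:**
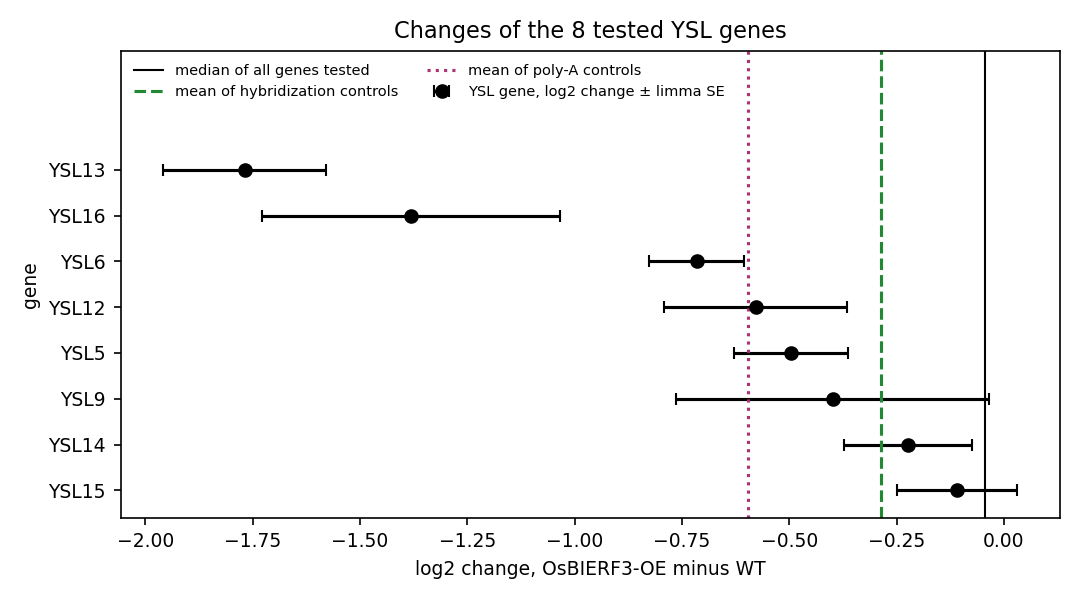
Log2 change of 8 tested YSL genes, OsBIERF3-OE minus WT, with bars of 1 limma standard error (2 arrays per genotype). The solid line is the median of all genes tested (-0.04), the dashed line the mean of the hybridization controls (-0.29) and the dotted line the mean of the poly-A controls (-0.60). YSL13 and YSL16 lie left of all 3 lines by more than their standard error, and YSL14 and YSL15 lie right of both control lines. YSL6 also lies left of all 3 lines, but left of the dotted line by little more than its bar. After scaling on the poly-A controls the standard error of YSL6 was wider, at 0.25.

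Relative to the mean change of the poly-A controls, the log2 changes of YSL13, YSL16 and YSL6 were -1.17, -0.78 and -0.12, with standard errors of 0.28, 0.27 and 0.25 after that scaling. YSL5, YSL9, YSL12, YSL14 and YSL15 gave 0.020 for YSL12 to 0.49 for YSL15, with standard errors of 0.26 to 0.29. YSL13 and YSL16 thus lay below the controls by more than their error, while YSL6, YSL12, YSL5 and YSL9 lay within 1 standard error of them. After scaling to equal hybridization controls, YSL13 alone was called, and the median of the 8 genes was -0.25 while that of all genes was 0.24. Scaled on the poly-A controls, YSL13 and YSL16 were called, and the medians were 0.061 and 0.55. Calls after that scaling are not comparable with those on the values as deposited. The limma adjusted p of YSL16 was 0.011 there, at a log2 change of -0.78 (standard error 0.27). As deposited it was 0.0425 at -1.38 (0.35), a larger change relative to its error. Its call on the poly-A scale thus does not show that it withstood the scaling.

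Of the YSL genes outside the named set, 6 had a probe set: YSL1, YSL4, YSL7, YSL8, YSL10 and YSL11. None was above background on any array, with signals from 3.61 to 20.1. Only YSL7 passed the filter on dim probe sets. It read 13.2 and 10.8 in WT and 20.1 and 15.4 in OsBIERF3-OE, and did not pass (limma adjusted p = 0.0916). Among all YSL genes measured, signals above background thus came from YSL5, YSL6, YSL9, YSL12, YSL13, YSL14, YSL15 and YSL16.

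The pathway around the transporters was followed in lists of genes that make the chelators, export them, take up or store the metals, or regulate iron responses. Of 29 such genes with a probe set, 25 were tested, 5 passed as lower in OsBIERF3-OE, 1 passed as higher and 19 did not pass. Over all genes tested, 14.5% passed as lower and 17.2% as higher. The counts of 5 and 1 among 25 are given as descriptions, and nothing is read from them. The median log2 change of the 25 was -0.40, against -0.04 for all genes tested. By list, the chelator synthesis genes had 1 fall among 9, the exporters 1 fall among 2, the uptake and storage genes 2 falls and 1 rise among 10, and the regulators 1 fall among 4. In the same order, the lists held 26, 16, 27 and 20 symbols, for which 10, 2, 15 and 4 genes were kept in the gene table. Many listed symbols thus have no gene here, and the lists cover the pathway only in part. No gene of the list of other oligopeptide transporters could be matched.

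Among the synthesis genes, the nicotianamine synthase genes did not pass. NAS1 and NAS2 were not above background on any array. NAS3 read 1683 and 1459 in WT and 1561 and 811.9 in OsBIERF3-OE, so that, as for YSL16 and YSL9, OsBIERF3-OE array 2 was low, here 1.92-fold below array 1. The nicotianamine aminotransferase gene NAAT1, which makes the next intermediate towards mugineic acids, read 84.0 and 307.3 in WT and 41.2 and 34.8 in OsBIERF3-OE (limma adjusted p = 0.059). The 1 fall in the list, ARD2, read 2244 and 2431 in WT and 1856 and 1658 in OsBIERF3-OE (limma adjusted p = 0.049). The gene table gives that gene (LOC4331707) both as a dioxygenase of methionine recycling and as the heat shock factor HSFA2D. ARD1, which is likewise listed under a heat shock factor name, had 2 probe sets that went apart, at log2 changes of 2.86 and -0.48. The former read 777.8 on OsBIERF3-OE array 1 and 85.5 on array 2, and neither passed.

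Of the exporters, TOM1, which releases deoxymugineic acid from roots, was level, at 1837 and 1659 in WT and 1788 and 1807 in OsBIERF3-OE. TOM2, an exporter of deoxymugineic acid within the plant, fell. Its brighter probe set, possibly shared between genes, read 341.1 and 383.8 in WT and 239.2 and 217.2 in OsBIERF3-OE (1.59-fold higher in WT; limma adjusted p = 0.024). A second probe set of TOM2 had a log2 change of -0.59.

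Among uptake and storage genes, VIT1 fell and NRAMP5 rose. VIT1, a vacuolar iron and zinc transporter of leaves, read 1079 and 1220 in WT and 716.8 and 683.9 in OsBIERF3-OE (1.64-fold higher in WT; limma adjusted p = 0.0145). NRAMP5, the manganese importer of roots, read 162.3 and 118.1 in WT and 346.8 and 556.7 in OsBIERF3-OE (3.17-fold higher in OsBIERF3-OE; limma adjusted p = 0.0158). NRAMP6, another metal transporter, read 261.9 and 268.7 in WT and 179.5 and 192.6 in OsBIERF3-OE (1.43-fold higher in WT; limma adjusted p = 0.038). The ferrous iron importer gene IRT1 was 47.2 and 48.1 in WT and 28.4 and 36.2 in OsBIERF3-OE, close to background, and did not pass (limma adjusted p = 0.0693). The copper transporter gene COPT1 read 885.1 and 446.3 in WT and 358.1 and 220.9 in OsBIERF3-OE (limma adjusted p = 0.0874).

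Of the regulators, NAC6, a NAC factor known to act on nicotianamine synthesis genes, fell from 962.5 and 964.7 in WT to 512.8 and 277.1 in OsBIERF3-OE (2.56-fold higher in WT; limma adjusted p = 0.0293). IDEF1, which binds an iron deficiency response element, read 361.4 and 344.9 in WT and 263.7 and 273.9 in OsBIERF3-OE (limma adjusted p = 0.0644). A bHLH gene that the table lists under both IRO2 and IRO3 (LOC4332972), names of regulators of the iron deficiency response, read 167.1 and 633.8 in WT and 142.4 and 67.0 in OsBIERF3-OE (limma adjusted p = 0.131). NAC5, known from studies of iron in seeds, read 410.6 and 453.0 in WT and 294.0 and 124.4 in OsBIERF3-OE (limma adjusted p = 0.0921). Without WT replicate 1, NAC6, TOM2, NRAMP6 and ARD2 did not pass, with limma adjusted p from 0.0631 to 0.126. Without WT replicate 2, the same genes did not pass, and neither did VIT1 (log2 change -0.62) and NRAMP5 (1.44). Without OsBIERF3-OE replicate 2, VIT1 (limma adjusted p = 0.0583), TOM2, NRAMP6 and ARD2 missed the threshold. NRAMP6 and ARD2 also missed it without OsBIERF3-OE replicate 1. Scaled on the hybridization controls, TOM2 (log2 change -0.38), NRAMP6 (-0.23) and ARD2 (-0.13) were not called. Scaled on the poly-A controls, NRAMP6 and ARD2 changed sign, and VIT1 (-0.12, limma adjusted p = 0.715) and TOM2 (-0.069, limma adjusted p = 0.836) were not called. NAC6 and NRAMP5 were called under both scalings, but calls on the poly-A scale are not comparable with those on the values as deposited. With a lower limit of 16 on signals, NAC6, TOM2, NRAMP5 and ARD2 were not called (limma adjusted p from 0.0528 to 0.108).

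**Figure D3:**
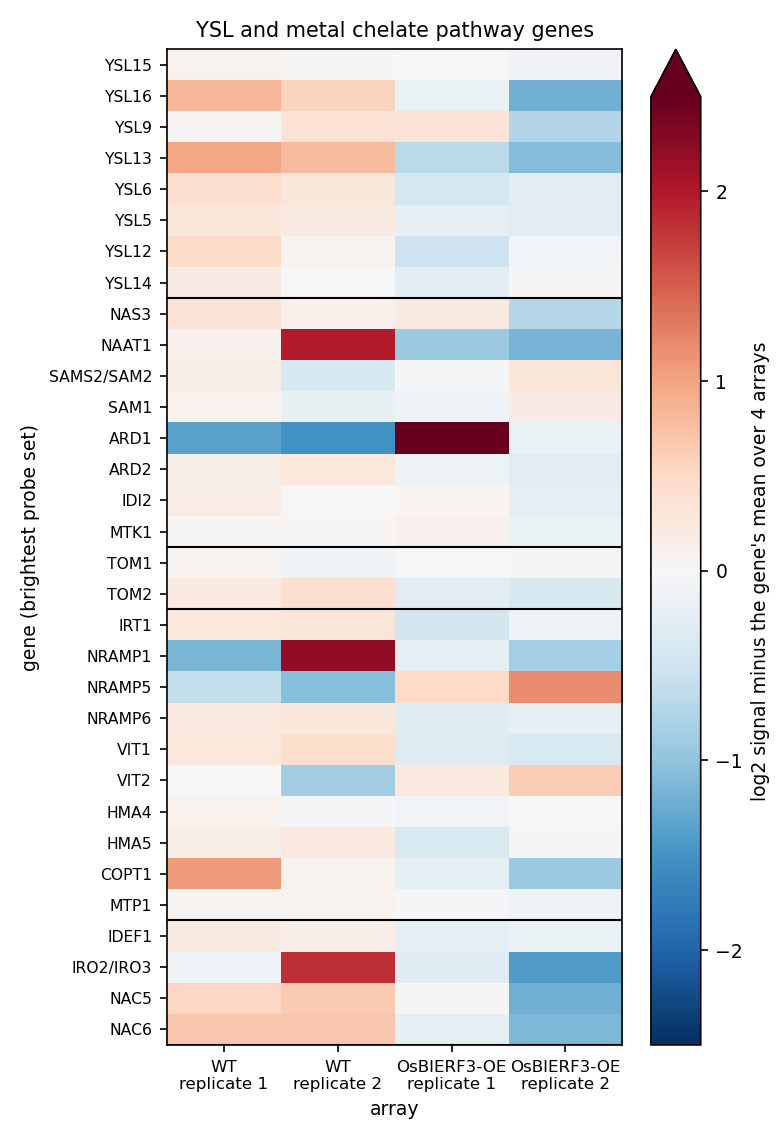
Log2 signal of each gene minus its own mean over the 4 arrays, for 8 YSL genes (top block) and, below, the genes of chelator synthesis, export, metal uptake and storage, and regulation that were above background on at least 1 WT array. Red is above and blue below the gene's mean. YSL13, YSL16 and NAC6 are red on both WT arrays and blue on both OsBIERF3-OE arrays, whereas NAAT1, NRAMP1 and IRO2/IRO3 are darkest red on WT replicate 2.

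The 2 WT arrays differed in several genes of this pathway by more than in any YSL gene tested. NRAMP1, an iron transporter, was 10.3-fold higher on WT array 2 (332.1) than on WT array 1 (32.4), the IRO2/IRO3 gene 3.79-fold and NAAT1 3.66-fold. Gaps this wide between the WT arrays were rare, at 0.0669%, 0.309% and 0.329% of the tested probe sets. In the other direction, COPT1 was 1.98-fold and the vacuolar transporter gene VIT2 1.84-fold higher on WT array 1. The YSL genes differed between the WT arrays by at most 0.40 on the log2 scale, for YSL12, and the iron deficiency genes YSL15 and IRT1 by 0.061 and 0.030. On WT array 1 the IRO2/IRO3 gene (167.1) was close to its value on OsBIERF3-OE array 1 (142.4). Between the OsBIERF3-OE arrays the widest YSL gaps were those of YSL9 and YSL16, and NAS3, NAC6, NAC5 and the IRO2/IRO3 gene were likewise lower on array 2, by 1.85-fold to 2.36-fold. Others were higher on array 2, among them NRAMP5 by 1.61-fold, YSL12 by 1.37-fold, VIT2 by 1.29-fold and YSL14 by 1.23-fold. The mean log2 signal of the poly-A controls was lower on array 2 than on array 1, and its part in these gaps was not tested.

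**Figure D4:**
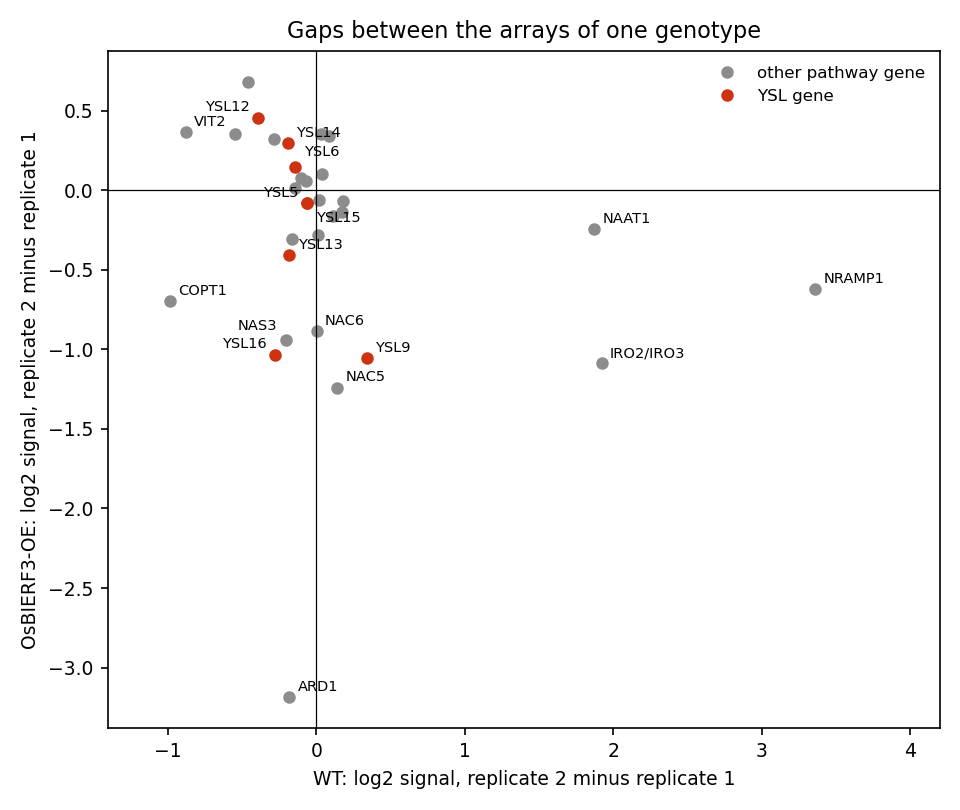
Difference in log2 signal between replicates 2 and 1 of WT (horizontal axis) and of OsBIERF3-OE (vertical axis) for 8 YSL genes (red) and other pathway genes above background on at least 1 WT array (grey, named where a gap exceeds 0.8). The YSL genes lie within 0.40 of 0 on the WT axis, whereas NRAMP1, IRO2/IRO3 and NAAT1 lie far to the right. YSL16 and YSL9 lie near -1 on the OsBIERF3-OE axis, beside NAS3 and NAC6.

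Genes that mark cell types were followed in lists as well, where 14.5% of all genes tested passed as lower and 17.2% as higher. All 9 tested genes of dividing cells rose. Of these, 4 were above background in both genotypes, with log2 changes from 2.89 for PCNA to 4.71 for CYCB1-1. The other 5 were not above background on either WT array, so that their rise has a lower bound alone, from at least 6.62-fold for MCM6 to at least 24.4-fold for CYCB2-2, the mean of the OsBIERF3-OE arrays set against the background level of the WT arrays. The summed signal of that list was 408 to 418 in WT and 5340 to 5546 in OsBIERF3-OE. Its shoot meristem gene KN1/OSH1 was not above background on any array. Of 6 genes of photosynthetic cells, PSAG, RCA and GLO4 fell and 3 did not pass, although the log2 changes of RCA (-0.41) and GLO4 (-0.43) turn positive on the poly-A scaling. RBCS did not pass by its brightest probe set (log2 change 0.056), but fainter probe sets of RBCS were called lower (-1.12 and -0.65). Another RBCS probe set was not above background on any array. That list had summed signals of 46802 in both WT arrays and 41518 to 41686 in OsBIERF3-OE. Of 4 genes of phloem and companion cells, where several YSL transporters act, 1 rose (SUS1, a sucrose synthase gene) and 3 did not pass. The sucrose transporter gene SUT1 read 718.6 and 621.9 in WT and 509.1 and 505.0 in OsBIERF3-OE (limma adjusted p = 0.0709). The summed signal of the phloem list was 4531 to 5450 in WT and 9012 to 9952 in OsBIERF3-OE, mostly SUS1. Of 4 measured root genes, LSI2 and HKT1;5 were not above background on any array, and LSI1 and LSI6 were above it on all arrays without passing. LSI1 read 283.5 and 234.7 in WT and 184.6 and 102.9 in OsBIERF3-OE, so the leaf samples held signal of a gene listed for roots. The summed signal of the root list was 2633 to 3448 in WT and 2030 to 2092 in OsBIERF3-OE, mostly that of LSI6, which leaves are also known to express. The part of these cell types in the YSL differences was not tested.

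The genes with profiles most like those of YSL13 and YSL16 were sought among 2165 other tested genes with a name, by the root mean square distance of the centred log2 signals over the 4 arrays. Nearest to YSL13 were WRKY24, a WRKY transcription factor gene (distance 0.10), ARP9, an actin-related protein gene (0.12), and THT2 (0.17). WRKY24 and ARP9 were above background on both WT arrays and on neither OsBIERF3-OE array, so their distances and ranks rest on signals that were not measured there. With dim signals raised to background, their log2 changes were -1.06 and -1.42, while that of YSL13 stayed at -1.77. Nearest to YSL16 were SAUR39, an auxin-responsive gene (0.16), NIA1, a nitrate reductase gene (0.16), and AMT1, an ammonium transporter gene (0.19). NIA1 read 4884 and 3052 in WT and 1851 and 979.9 in OsBIERF3-OE, with the same order of the 4 arrays as YSL16. With the mean of a gene's probe sets, the log2 changes of NIA1 and AMT1 were -0.83 and -0.99, in place of -1.52 and -1.71. The likeness of these genes to YSL16 thus rests on their brightest probe sets. Over 4 arrays many genes can share such an order.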

How the data were processed

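The authors deposited a linear signal intensity for each probe set and array. MAS5 is named per the submitters' processing notes, and how the arrays were normalized is not given in the sources used here. The 4 arrays' sorted log2 values differed from their common mean by up to 0.0803. Sample titles gave the genotype and the number of the biological replicate.

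Signals with a lower limit of 1 were put on the log2 scale. The upper 60% of 57258 rice probe sets by mean log2 signal entered a limma 3.58.1 fit under R 4.3.3 (eBayes with trend=TRUE, genotype alone, Benjamini-Hochberg at 0.05), with 5.28 total degrees of freedom and a median standard error of 0.15. The steps were tested on simulated data. An exact permutation test of 2 against 2 arrays cannot go below 0.333, so none was used. Log2 changes are OsBIERF3-OE minus WT, and a gene is read by its brightest probe set. Precision is limited by having 2 arrays of each genotype.

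Gene names came from the platform's probe annotation and RefSeq's rice genes (assembly GCF_034140825.1). A single gene was listed for 22436 rice probe sets and several genes for 95, while 34727 are unnamed here. Tables were merged using pandas 2.3.3 under Python 3.11.15. All 17905 genes matched, and coordinates were used only to order the genes and count those lying between YSL genes. Symbols that matched a gene of another name or function (such as GT1, FDH and RSS1) were left out.

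The YSL genes and the lists (chelator synthesis, export, uptake and storage, regulators, other YSL and oligopeptide transporter genes, and markers of photosynthetic, phloem, root and dividing cells) were chosen with earlier results of these data known. Named are all YSL genes, pathway genes that passed, and the 3 genes nearest in profile to YSL13 and to YSL16; pathway genes that did not pass, the gaps between replicates and the scaling on poly-A controls were taken up after their values were seen. Promoter motifs and protein identities were planned but not analysed here, as no sequences were used.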

Additional observations from a re-analysis of the deposited data

How the results depend on the processing

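YSL13 was called under all 16 alternatives, and YSL14, YSL15 and YSL9 under none. With a lower limit of 16, 4312 probe sets were called in place of 8331, 2 pathway genes lower in place of 5 and 0 higher in place of 1. With no filter, 3 pathway genes were called lower. Scaled on the hybridization controls, 1 YSL gene was called in place of 3, their median was -0.25 in place of -0.54, and 2 pathway genes were lower and 2 higher. Scaled on the poly-A controls, chosen after seeing the data, 15002 probe sets were called, the YSL median was 0.061, 3 pathway genes were lower and 7 higher, and the log2 changes of ARD2 and NRAMP6 were 0.18 and 0.084. Limma's errors differ after that scaling, so its counts of calls are not comparable with those on the values as deposited. These scalings add one constant to every gene, so the YSL median stayed -0.49 from that of all genes.

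Leaving out one array in turn gave 3270 (without WT replicate 2) to 6171 probe sets, 1 (without WT replicate 1) to 3 YSL genes lower, a YSL median of -0.65 to -0.52, 1 (without OsBIERF3-OE replicate 2) to 5 pathway genes lower and 0 to 2 higher. Titles give both genotypes the same replicate numbers, but the differences between replicates correlated at -0.25 over probe sets, so the numbers are not taken as pairs. With the replicate block, 4540 probe sets, 2 YSL genes (YSL13 and YSL16) and 2 pathway genes lower were called. With the numbers crossed, added after seeing the data, 12339 probe sets, 5 YSL genes lower, 9 pathway genes lower and 3 higher were called. YSL7 is counted with the pathway genes in these numbers. The other alternatives (quantile normalization, median scaling, upper 40% filter, trend=FALSE, dim signals raised to background, mean of a gene's probe sets) moved no count of calls by over 1.5 times. Deposited values were already nearly equal in distribution, so quantile normalization and median scaling had little to change. The cause of these shifts was not tested. YSL15 lies close to background, where a change would be understated.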
